A study of Mus musculus with 9 samples.

Results

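The 8 genes described here, Pmp22, Ngfr, L1cam, Mbp, Ednrb, Mia, Mitf and Egr2, mark or build neural crest cells, Schwann cells and melanocytes. They were taken as a named list, by matching their Entrez identifiers to the rows of a table of raw read counts, and all 8 were found among its 24594 genes. RNA sequencing was done on BG2 cells, a mouse line grown from an endpoint mammary tumour of the MMTV-NIC strain, in which the MMTV promoter drives the oncogene Neu together with Cre in mammary epithelium. Clone 1 and clone 2 are Sox10 CRISPR knockout cells, each grown as a clone out of an edited population treated with guides against exon 3 of Sox10, and the library names of both clones carry the same guide tag, sgRNA2. The control is the wild-type bulk population of BG2 cells, whose library names carry the tag NTC. Every group has the strain label MMTV-NeuIresCre, so the Neu and Cre transgene was shared by clones and control, and every group is labelled mammary epithelial. Each group has 3 libraries called technical replicates, and p-values therefore measure only the spread between such libraries, not between clones or cultures.

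Sox10 is a transcription factor that neural crest cells carry with them as they become peripheral glia and pigment cells. In Schwann cells it acts with Egr2 to switch on the genes of the myelin sheath, Mbp and Pmp22 among them. In melanoblasts it acts with Pax3 at the Mitf gene, and it is also known to act on the gene for the endothelin receptor Ednrb. Part of mammary epithelium expresses Sox10 as well, without being of neural crest origin.

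The count table placed the libraries between 65805296 and 83282841 counts. Sox10 itself had 0, 6 and 0 counts in clone 1 and 0, 2 and 2 counts in clone 2, against 16660, 21437 and 26038 counts in the control. The libraries numbered 1 stood apart: pairs of libraries of a group that include number 1 differed by a chi-square of 25.6 to 49.7 per gene, and pairs without it by 5.49 to 10. Without the 3 libraries numbered 1, the same number of the genes described here was called in each direction in every comparison. Levels are given as TMM-scaled CPM, which are counts scaled by library size and corrected for library composition, and a gene was called higher or lower where edgeR's quasi-likelihood test gave a Benjamini-Hochberg adjusted p under 0.05 over all 13928 genes tested.

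The defining markers of myelinating Schwann cells and of melanocytes were mostly near 0, so the list is described by its genes and not as a cell type. All 8 melanocyte markers stayed under 1 CPM in every group, with Tyr, Tyrp1 and Slc45a2 at 0 counts in all 9 libraries. Of 8 Schwann markers 5 stayed under 1 CPM in every group and Gjb1, a connexin of Schwann cells, had 0 counts throughout. In bulk RNA, fewer cells of a type and less RNA per cell cannot be told apart.

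The promoters of 3 of the genes are shown because the results turn on them: Ngfr and L1cam were read in every control library and in no clone library, and Egr2 differed most between the clones. They are RefSeq windows of build GRCm38.p6 that run from 250 bases before to 50 bases after an annotated start. Capitals in the Egr2 window mark an E-box, CATGTG, and after it a CArG box, the motif of serum response factor, whose first base lies 72 bases before the start.
Ngfr, chr11:95587649-95587948, minus strand: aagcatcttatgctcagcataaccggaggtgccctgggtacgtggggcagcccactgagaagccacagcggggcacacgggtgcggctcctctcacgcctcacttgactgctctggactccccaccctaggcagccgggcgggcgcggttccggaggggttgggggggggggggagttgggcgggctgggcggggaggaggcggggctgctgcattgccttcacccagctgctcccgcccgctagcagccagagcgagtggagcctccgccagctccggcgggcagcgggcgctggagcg
L1cam, chrX:73880741-73881040, minus strand: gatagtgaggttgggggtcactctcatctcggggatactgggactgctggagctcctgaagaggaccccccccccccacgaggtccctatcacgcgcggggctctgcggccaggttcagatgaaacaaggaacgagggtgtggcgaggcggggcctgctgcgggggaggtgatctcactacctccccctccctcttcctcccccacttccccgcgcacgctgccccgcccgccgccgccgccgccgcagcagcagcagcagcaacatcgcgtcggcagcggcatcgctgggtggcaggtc
Egr2, chr10:67537619-67537918, plus strand: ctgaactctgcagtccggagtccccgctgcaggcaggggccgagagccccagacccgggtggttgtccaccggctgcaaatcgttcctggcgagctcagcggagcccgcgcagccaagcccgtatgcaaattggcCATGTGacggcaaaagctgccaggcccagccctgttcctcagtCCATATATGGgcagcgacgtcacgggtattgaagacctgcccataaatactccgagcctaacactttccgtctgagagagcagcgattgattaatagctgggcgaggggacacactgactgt
The Ngfr window was 71.7% G and C, the L1cam window 69.3% and the Egr2 window 60.0%, against a median of 52.7% over all windows.

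Promoter windows were found for 7 of the 8 genes, all but Mbp, 17 windows in all. They were searched on both strands beside all 32851 windows of the table. Windows of L1cam overlap each other, as do some of Pmp22 and Egr2, so the 17 are not separate stretches. The Sox letters AACAAT stood in 0 of the 17 windows and in 10.7% of all windows, and the Sox letters ACAAAG in 0 of the 17 and in 18.7% of all. These shares were not adjusted for G and C content, and whether the Sox letters are rarer than it allows was not tested. The E-box CACGTG, which Mitf is known to bind, stood in 1 window, of Egr2, and in 7.15% of all windows, and the E-box CATGTG in 3 windows, all of Egr2, and in 14.2% of all. A CArG box stood in 4 windows, all of Egr2, against 1.63% of all windows. Egr letters GCGGGGGCG and GCGTGGGCG stood in 0 of the 17 windows, against 2.91% and 0.612% of all. Of the 4 Egr2 windows with a CArG box, the 3 that also hold CATGTG overlap and share both matches, and the other window holds a different CArG box; a match describes letters, not a bound site.

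Of the 8 genes, 6 could be tested, and Ednrb and Mia had too few counts. In clone 1, 3 were higher (Pmp22, Egr2 and Mitf) and 3 lower (Ngfr, L1cam and Mbp) than in the control, beside 37.9% of all genes tested called higher and 38.6% called lower. In clone 2 the same 3 were higher and the same 3 lower, beside 37.3% of all genes called higher and 37.1% called lower. All 6 thus had a single direction over the clones, where 28.7% of all genes were called higher in both and 29.4% lower in both. With that much of the transcriptome called, and with Ngfr and L1cam passing the low-count filter through the control alone, the shares of called genes are not a result about the list. The clones were compared with the same 3 control libraries, so their agreement is not independent. The control is a bulk population and both knockouts are clones, so knockout and cloning cannot be told apart in any difference from the control.

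**Figure D1:**
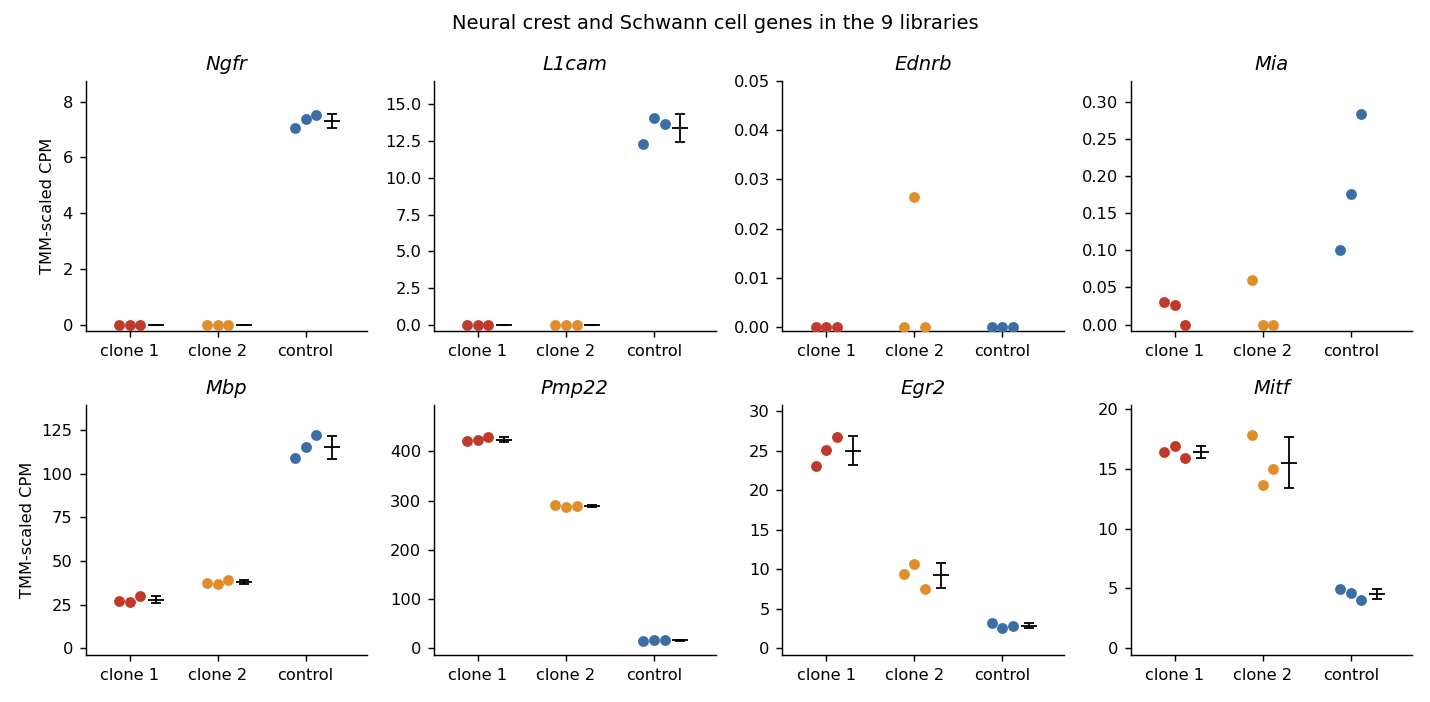
TMM-scaled CPM (linear y axis, a scale for each gene) of the 8 genes in the 3 libraries of clone 1, clone 2 and the control. Points are libraries in the order of their numbers, and the black bar beside them is the mean ± SD, not drawn for Ednrb and Mia. Ngfr and L1cam lie at 0 in all 6 clone libraries, Pmp22, Egr2 and Mitf lie above the control in all 6, and Mbp lies below it in all 6.

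Among the surface receptors, Ngfr (chr11:95568818-95587698, minus strand, GRCm38) encodes the low-affinity neurotrophin receptor p75NTR, a marker of neural crest cells and of Schwann cells without myelin. Ngfr had 0 counts in all 3 clone 1 libraries and in all 3 clone 2 libraries, against 488, 546 and 610 counts in the control, where it averaged 7.32 ± 0.250 CPM (SD, n = 3). The groups did not overlap, and no library of either clone held a single read of the gene. With 3 counts over a group as the floor, Ngfr was lower by at least 518-fold in clone 1, and by at least 580-fold in clone 2. Ngfr passed the low-count filter through the control alone, so the bounds are given without a p-value.

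L1cam (chrX:73853778-73880838, minus strand) encodes a cell adhesion molecule of the immunoglobulin superfamily that axons and Schwann cells carry and that guides their contact. L1cam had 0 counts in all 6 clone libraries, against 849, 1044 and 1108 counts in the control, where it averaged 13.4 ± 0.969 CPM (SD, n = 3). As with Ngfr, every control library held many reads and every clone library none. L1cam was lower by at least 946-fold in clone 1, and by at least 1058-fold in clone 2, given without a p-value for the same reason. Of the 9939 genes with at least 5 CPM in the control, 60 had 0 counts in all 6 clone libraries, which is 0.604%, and Ngfr and L1cam are both among them. The list was chosen with earlier results of these data known, so this share is a description and not a test.

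Of 13 other neurotrophin genes tested, 4 rose in both clones and 4 fell in both, near the 28.7% and 29.4% of all genes. Another 2 were called in opposite directions, as were 667 of all 13928 genes tested. The medians were -0.07 and -0.08 on the log2 scale in clone 1 and clone 2. Ntrk3, the receptor tyrosine kinase for neurotrophin-3, averaged 3.76 ± 0.447 CPM in clone 1 and 16.7 ± 0.432 CPM in clone 2, against 0.293 ± 0.0933 CPM in the control (SD, n = 3 each). Sorcs2, a sortilin-family receptor known to pair with p75NTR, averaged 1.57 ± 0.112 CPM in clone 1 and 1.55 ± 0.0834 CPM in clone 2, against 40.2 ± 3.65 CPM in the control (SD, n = 3 each). Ntrk3 thus lay above the control in both clones and Sorcs2 below it, with log2 fold changes of 3.67 ± 0.19 and 5.82 ± 0.18 for Ntrk3 and -4.68 ± 0.11 and -4.70 ± 0.10 for Sorcs2 (± SE, clone 1 and clone 2). Of the ligands, Ntf5, the gene of neurotrophin-4, fell (-3.71 ± 0.26 and -2.47 ± 0.24, log2 ± SE), and so did Bdnf (-1.70 ± 0.15 and -1.54 ± 0.15). Sort1, the co-receptor of p75NTR for proneurotrophins, fell in clone 1 (-0.39 ± 0.13) and rose in clone 2 (1.5 ± 0.13). The fall in clone 1 no longer passed the test when control replicate 2 (-0.33), control replicate 3 (-0.25) or clone 1 replicate 2 (-0.37) was left out. Ntrk2 had 2 counts, both in clone 2.

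Among genes of the L1 family and its partners, 4 of 12 tested rose in both clones, 1 fell in both and 2 were called in opposite directions. Over all genes tested, 28.7% rose in both and 29.4% fell in both. With the replicate number as a block 6 rose in both and 2 fell in both. The paralog Chl1 had 0 counts in all 9 libraries, Nrcam had 0 counts in clone 1, 10 in clone 2 and 18 in the control, and Nfasc had 20 in clone 1, 2 in clone 2 and 22 in the control. Of the ankyrins, which tie L1 proteins to the membrane skeleton, Ank2 and Ank1 rose in both clones and Ank3 did not. Ank2 averaged 14.1 CPM in clone 1 and 16.4 CPM in clone 2, against 0.485 CPM in the control (log2 4.85 ± 0.12 and 5.07 ± 0.12, ± SE). Ank1 averaged 19.0 CPM in clone 1 and 23.0 CPM in clone 2, against 0.962 CPM in the control (log2 4.30 ± 0.13 and 4.57 ± 0.13). Ank3 averaged 21.2 CPM in clone 1 and 32.6 CPM in clone 2, against 34.7 CPM in the control, and was called lower in clone 1 (-0.71 ± 0.06) and not called in clone 2 (-0.09 ± 0.06). Itga5, a subunit of the fibronectin receptor, which L1 is known to bind, averaged 235 CPM in clone 1 and 330 CPM in clone 2, against 36.0 CPM in the control (log2 2.71 ± 0.09 and 3.19 ± 0.09). Nrp1, which forms a semaphorin receptor with L1, was called in opposite directions, at 0.60 ± 0.06 in clone 1 and -0.34 ± 0.06 in clone 2.

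A gene beside L1cam fell with it, while the nearest gene of at least 5 CPM on each side of Ngfr was higher (the plot of fold changes by distance). Pdzd4, the nearest gene of at least 5 CPM on the lower side of L1cam at 28.7 kb, averaged 0.312 CPM in clone 1 and 0.346 CPM in clone 2, against 18.4 CPM in the control (log2 -5.88 and -5.73, called lower in both). On the other side Naa10, at 36.0 kb, averaged 27.1 CPM in clone 1 and 31.8 CPM in clone 2, against 35.0 CPM in the control, and was called lower in clone 1 (-0.37) but not in clone 2 (-0.14), where the fit with the replicate number as a block called it lower (adjusted p = 0.0216). The 35 genes within 1000 kb of L1cam had a median log2 fold change of -0.07 in clone 1 and -0.03 in clone 2. The nearest such genes of Ngfr were called higher: Spop, at 75.4 kb, averaged 224 CPM in clone 1 and 156 CPM in clone 2, against 103 CPM in the control. Phb, at 79.3 kb on the other side, averaged 105 CPM in clone 1 and 128 CPM in clone 2, against 85.4 CPM in the control. Beyond Phb, Zfp652 at 161 kb was called lower in both clones (-0.26 and -0.57). The 27 genes within 1000 kb of Ngfr had medians of 0.35 and 0.25, and in clone 1 they ranged from -4.39 to 5.81.

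**Figure D2:**
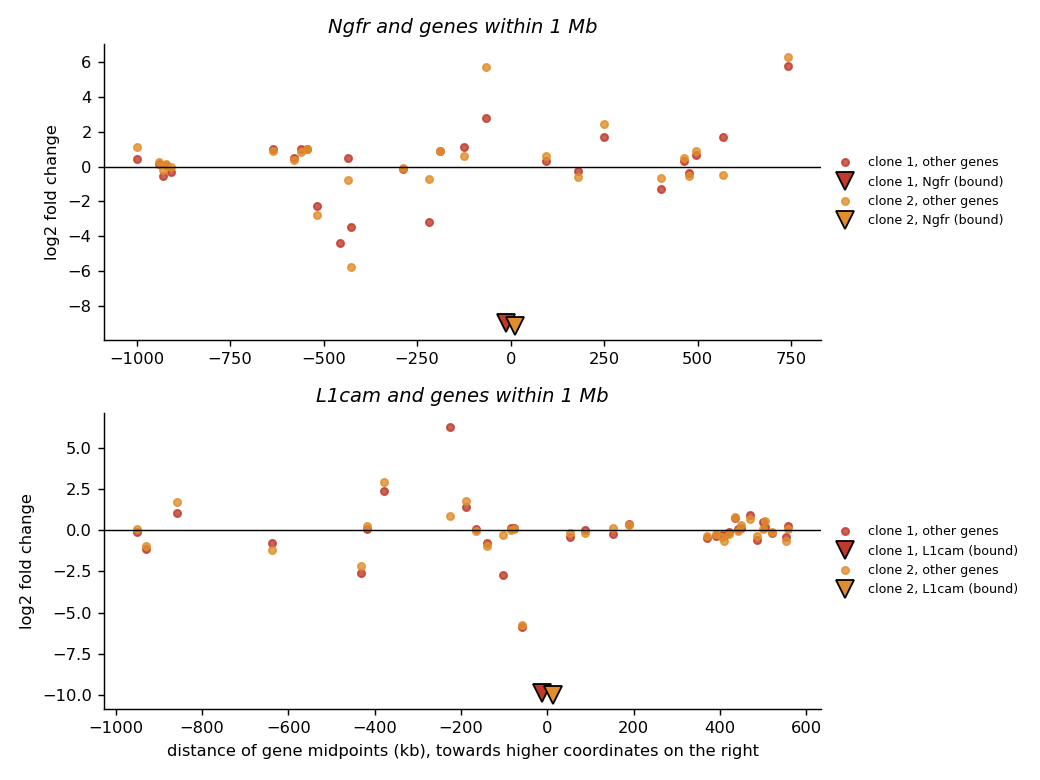
Log2 fold change of clone 1 and clone 2 against the control (y axis) for genes within 1 Mb of Ngfr (top) and L1cam (bottom), by distance between gene midpoints in kb (x axis). Triangles are Ngfr and L1cam at their bounds against a floor of 3 counts over a group, set slightly apart for sight. Neighbours under that floor in a group compared (1 gene of the Ngfr panel in clone 2, and 1 of the L1cam panel in each clone) are not drawn. Neighbours lie on both sides of 0 in both panels, and Pdzd4 lies at -5.88 in clone 1 and -5.73 in clone 2, just left of L1cam.

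Ednrb (chr14:103814615-103844508, minus strand), the endothelin receptor B that the early melanocyte and enteric lineages need, was not detected beyond the floor in any group. It had 0 counts in clone 1, 0, 2 and 0 counts in clone 2 and 0 counts in the control, where a sum of 0 allows up to 0.0142 CPM in clone 1 and 0.0134 CPM in the control. No fold is given, since all 3 groups were at or under the floor. The other receptor, Ednra, and the ligand Edn3 also had 0 counts in all 9 libraries. The ligand Edn1 averaged 8.97 ± 0.379 CPM in clone 1 and 4.58 ± 0.670 CPM in clone 2, against 14.5 ± 1.67 CPM in the control (SD, n = 3 each), a fall in both clones (log2 -0.69 ± 0.12 and -1.66 ± 0.12, ± SE). Edn2 had sums of 6 counts in clone 1 and 4 counts in clone 2, against 102 in the control. It passed the low-count filter through the control alone, so no call is given. The enzyme Ece1, which trims endothelins to their active form, averaged 83 ± 4.73 CPM in clone 1 and 77.8 ± 5.71 CPM in clone 2, against 30.4 ± 2.96 CPM in the control (log2 1.45 ± 0.08 and 1.36 ± 0.08). Ece2 was higher in both clones too (4.0 ± 0.28 and 4.88 ± 0.27) at a low level, 1.09 CPM in clone 1 and 2.02 CPM in clone 2, against 0.0654 CPM in the control. It passed the low-count filter through the clones alone. Kel had 0 counts in all 9 libraries, and Ecel1 had 4 counts in clone 1, 4 in clone 2 and 0 in the control.

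Mia (chr7:27179741-27181149, minus strand) encodes a small secreted protein first known from melanoma cells. Mia had 2, 2 and 0 counts in clone 1 and 5, 0 and 0 counts in clone 2, against 7, 13 and 23 counts in the control. The control libraries held more reads than any clone library, but the gene was too low for the test. By a 95% counting interval on the summed reads Mia was 10.2-fold lower in clone 1 (3.69 to 39.0) and 9.10-fold lower in clone 2 (3.61 to 29.4), which covers counting error only. With no filter on low counts, edgeR gave adjusted p = 0.0202 for clone 1 and 0.0213 for clone 2. The paralogs Mia2 and Mia3, which load cargo at endoplasmic reticulum exit sites, were well expressed: Mia2 averaged 68.7 CPM in clone 1 and 57.8 CPM in clone 2, against 54.5 CPM in the control, and was called higher in clone 1 alone (log2 0.33, adjusted p = 0.0134). That call was lost without clone 1 replicate 1 (0.24, adjusted p = 0.0574). Mia3 averaged 126 CPM in clone 1 and 141 CPM in clone 2, against 100 CPM in the control, and rose in both clones (0.34 and 0.49). Otor, a close relative of Mia, had 0 counts throughout.

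The myelin proteins Pmp22 and Mbp moved in opposite directions. Pmp22 (chr11:63128982-63159547, plus strand) encodes a membrane protein of compact peripheral myelin that is also made outside the nervous system, in epithelia and fibroblasts. Pmp22 reached 420, 423 and 429 CPM in clone 1 and 291, 287 and 289 CPM in clone 2, against 15.5, 16.3 and 17.2 CPM in the control. Libraries of a group differed by a few percent at most in the clones, and the 3 groups lay far apart, with clone 1 highest and the control lowest. The means were 424 ± 4.23 CPM in clone 1, 289 ± 1.72 CPM in clone 2 and 16.4 ± 0.844 CPM in the control (SD, n = 3 each), which is 25.9-fold and 17.6-fold higher than the control. On the log2 scale the rise was 4.70 ± 0.05 in clone 1 (± SE, edgeR adjusted p = 9.77e-14) and 4.14 ± 0.05 in clone 2 (2.21e-13). Of all genes tested, 405 were higher by 4 or more on the log2 scale in both clones, which is 2.91%, and Pmp22 is among them. Since the list was chosen with earlier results known, this share too is only a description.

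The relatives of Pmp22 split. Emp3, an epithelial membrane protein paralog, averaged 156 ± 5.79 CPM in clone 1 and 83.5 ± 1.17 CPM in clone 2, against 10.5 ± 0.727 CPM in the control, and rose by 3.89 ± 0.06 and 2.99 ± 0.06 on the log2 scale (± SE). Perp, a p53 target that builds desmosomes, averaged 469 CPM in clone 1 and 434 CPM in clone 2, against 206 CPM in the control, and rose by 1.18 ± 0.05 and 1.07 ± 0.05. Emp1 averaged 304 ± 4.25 CPM in clone 1 and 230 ± 5.48 CPM in clone 2, against 1476 ± 59.7 CPM in the control, with log2 fold changes of -2.28 ± 0.05 and -2.68 ± 0.05. Emp1 was thus lower in both clones where Pmp22 and Emp3 were higher. Emp2 was called in opposite directions, -0.23 ± 0.06 in clone 1 and 0.30 ± 0.06 in clone 2. Tmem47, a more distant relative at cell junctions, had 0 counts in all 6 clone libraries, against 8.69 ± 1.69 CPM in the control, which makes it lower by at least 609-fold in clone 1, and by at least 682-fold in clone 2. Lim2 and Nkg7 were not detected beyond 1 count.

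Mbp encodes the basic proteins that hold the inner faces of the myelin membrane together, and from an upstream start the golli proteins, which cells outside the nervous system make too. Mbp stood at 27.0, 26.5 and 30.1 CPM in clone 1 and at 37.5, 36.9 and 38.9 CPM in clone 2, against 109, 115 and 122 CPM in the control. The 3 groups did not overlap, and the control was highest. The means were 27.9 ± 2.00 CPM in clone 1, 37.8 ± 1.05 CPM in clone 2 and 115 ± 6.63 CPM in the control (SD, n = 3 each). Mbp fell by 2.05 ± 0.07 on the log2 scale in clone 1 (± SE, edgeR adjusted p = 1.69e-10) and by 1.61 ± 0.07 in clone 2 (1.18e-09). The counts are per gene, so golli and classic Mbp transcripts cannot be told apart.

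Of 22 other genes of the myelin sheath, 10 were tested: 0 rose in both clones, 6 fell in both and 1 was called in opposite directions. The medians of the 10 were -0.74 and -0.93 on the log2 scale, beside 0.00 over all genes, of which 28.7% rose and 29.4% fell in both clones. Plekhb1, a pleckstrin homology protein found in myelinating glia and photoreceptors, averaged 0.571 ± 0.0598 CPM in clone 1 and 1.68 ± 0.0858 CPM in clone 2, against 42.3 ± 7.41 CPM in the control (log2 -6.21 ± 0.16 and -4.65 ± 0.14, ± SE). Cnp, an enzyme of the myelin cytoplasm, averaged 5.35 ± 0.228 CPM in clone 1 and 5.21 ± 0.228 CPM in clone 2, against 31.6 ± 2.66 CPM in the control (-2.56 ± 0.09 and -2.6 ± 0.09). Mal, a raft protein of myelin and of epithelial apical sorting, averaged 25.9 ± 0.763 CPM in clone 1 and 67.7 ± 1.19 CPM in clone 2, against 123 ± 6.89 CPM in the control (-2.25 ± 0.06 and -0.86 ± 0.05). Prx, a scaffold of the Schwann cell membrane, also fell in both (-1.15 ± 0.09 and -1.56 ± 0.09), as did Drp2, its partner (-1.56 ± 0.21 and -0.65 ± 0.19), and the tetraspanin Cd9 (-0.34 ± 0.05 and -0.68 ± 0.05). Without the 3 libraries numbered 1, Drp2 was not called in clone 2 (-0.55, adjusted p = 0.0935), which leaves 5 genes of the list lower in both. Ncmap, a protein of noncompact myelin, averaged 35.3 ± 0.689 CPM in clone 1 and 5.67 ± 0.306 CPM in clone 2, against 22.0 ± 1.69 CPM in the control, and was called in opposite directions (0.68 ± 0.07 and -1.95 ± 0.08). The 12 genes not tested, Mag and Mog among them, were too low to test.

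**Figure D3:**
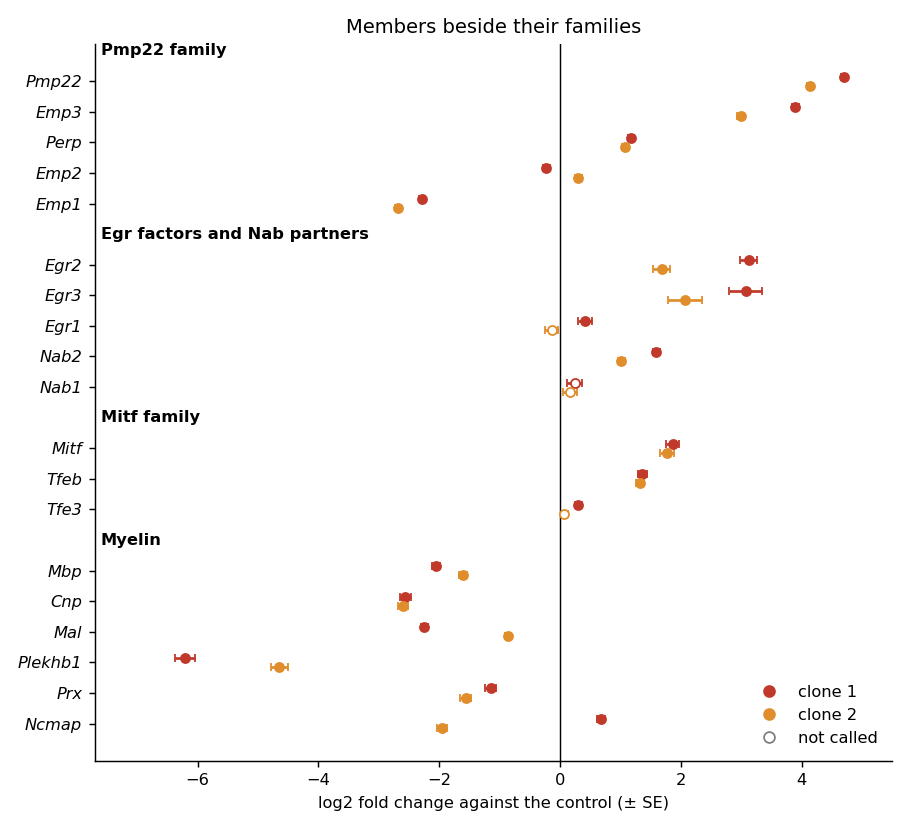
Log2 fold change against the control (x axis, ± SE) of Pmp22, Egr2, Mitf and Mbp beside their paralogs, partners and other myelin genes, for clone 1 (red) and clone 2 (orange). Open points were not called. Emp1 lies at -2.28 and -2.68 where Pmp22 lies at 4.70 and 4.14, and Tfeb, at 1.36 and 1.32, lies to the right of Tfe3.

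Of the transcription factors, Egr2 (Krox20, chr10:67534469-67542188, plus strand) is a zinc finger protein that Schwann cells need to myelinate and that growth factors also induce for a short time in many cells. Egr2 stood at 23.1, 25.1 and 26.8 CPM in clone 1 and at 9.46, 10.7 and 7.55 CPM in clone 2, against 3.18, 2.6 and 2.88 CPM in the control. The groups did not overlap, and every clone 1 library held more than any clone 2 library. The means were 25 ± 1.83 CPM in clone 1, 9.25 ± 1.60 CPM in clone 2 and 2.88 ± 0.291 CPM in the control (SD, n = 3 each). The rise was 3.12 ± 0.14 on the log2 scale in clone 1 (± SE, edgeR adjusted p = 2.38e-09) and 1.68 ± 0.14 in clone 2 (4.87e-07).

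Egr3, a paralog that is also induced by growth factors, rose in both clones (3.07 ± 0.27 and 2.07 ± 0.28) at 2.81 CPM in clone 1 and 1.40 CPM in clone 2, against 0.336 CPM in the control. Egr1 averaged 154 ± 23.6 CPM in clone 1 and 105 ± 7.24 CPM in clone 2, against 116 ± 11.5 CPM in the control, and the clone 1 libraries overlapped the control although the gene was called (0.41 ± 0.11, edgeR adjusted p = 0.00436). In clone 2 Egr1 was not called (-0.14 ± 0.11, edgeR adjusted p = 0.247), and with the replicate number as a block it was called lower (-0.14, adjusted p = 0.0202). Egr4 had 0 counts in all 9 libraries. Nab2, a co-repressor that Egr factors induce and that Egr2 needs for myelination together with Nab1, averaged 140 ± 5.92 CPM in clone 1 and 93.8 ± 4.59 CPM in clone 2, against 46.5 ± 2.88 CPM in the control (1.59 ± 0.06 and 1.01 ± 0.06). Nab1 was not called in either clone (0.24 ± 0.12 and 0.16 ± 0.12), but with the block it was called higher in both (0.23 and 0.15, adjusted p = 0.000117 and 0.00532).

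Of the wider list of regulators of myelination, which holds those Egr and Nab genes, 3 of 12 tested rose in both clones, 5 fell in both and 1 was called in opposite directions. The shares over all genes were 28.7% higher and 29.4% lower in both. With the block 5 rose in both and 5 fell in both. Zeb2, a repressor that Schwann cells need to myelinate, averaged 75.7 ± 8.27 CPM in clone 1 and 53.3 ± 9.51 CPM in clone 2, against 5.81 ± 1.10 CPM in the control (3.71 ± 0.16 and 3.20 ± 0.16). Adgrg6, the adhesion receptor that starts myelination through cyclic AMP, averaged 0.267 ± 0.159 CPM in clone 1 and 2.52 ± 0.392 CPM in clone 2, against 9.51 ± 0.832 CPM in the control (-5.12 ± 0.28 and -1.92 ± 0.21). Tead1, Hdac1, Yy1 and Nfatc4 also fell in both clones, and Srebf1 was called in opposite directions (0.25 ± 0.06 and -0.38 ± 0.06). Pou3f1, which acts before Egr2 in Schwann cells, had 0 counts in clone 1, 0 in clone 2 and 3 in the control.

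Mitf (chr6:97807002-98021360, plus strand), the basic helix-loop-helix factor that sets melanocyte fate and is also made in other cells from other first exons, stood at 16.4, 16.9 and 15.9 CPM in clone 1 and at 17.8, 13.6 and 15 CPM in clone 2, against 4.94, 4.60 and 4.07 CPM in the control. Every clone library lay above every control library, while the clones overlapped each other. The means were 16.4 ± 0.496 CPM in clone 1, 15.5 ± 2.15 CPM in clone 2 and 4.53 ± 0.440 CPM in the control (SD, n = 3 each). Mitf rose by 1.86 ± 0.11 on the log2 scale in clone 1 (± SE, edgeR adjusted p = 4.17e-08) and by 1.77 ± 0.11 in clone 2 (6.46e-08). The counts do not separate its melanocyte transcript from the others. Its paralog Tfeb, a regulator of lysosomal genes, averaged 49.3 CPM in clone 1 and 47.8 CPM in clone 2, against 19.2 CPM in the control, and rose in both (1.36 ± 0.07 and 1.32 ± 0.07). Tfe3 was called higher in clone 1 alone (0.30 ± 0.06), with 0.07 and adjusted p = 0.289 in clone 2, and Tfec had 0 counts in all 9 libraries.

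The pigment enzymes Tyr and Tyrp1, which Mitf is known to drive, had 0 counts in all 9 libraries. Of 20 genes of the melanocyte lineage in the table, 9 could be tested, and 2 rose in both clones, 4 fell in both, Sox10 itself being 1 of the 4, and 1 was called in opposite directions. Beside these stand 28.7% of all genes higher in both and 29.4% lower in both. Gpnmb, a melanosome and lysosome glycoprotein that macrophages also make, averaged 56.1 ± 5.03 CPM in clone 1 and 0.252 ± 0.0582 CPM in clone 2, against 0.0255 ± 0.0248 CPM in the control. Gpnmb was called higher in both clones, with summed counts of 11934 in clone 1 and 60 in clone 2, against 6 in the control. Myo5a, a motor of melanosomes and other vesicles, averaged 283 ± 24.8 CPM in clone 1 and 274 ± 34.0 CPM in clone 2, against 119 ± 13.3 CPM in the control (1.25 ± 0.10 and 1.20 ± 0.10). Mlph, the linker between that motor and melanosomes, averaged 0.103 ± 0.0414 CPM in clone 1 and 0.688 ± 0.279 CPM in clone 2, against 6.44 ± 1.23 CPM in the control (-5.93 ± 0.37 and -3.23 ± 0.28). Rab27a, which recruits that linker, fell as well (-1.09 ± 0.20 and -4.90 ± 0.27).

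Between the clones, 1 of the 6 tested genes was higher in clone 2 than in clone 1 and 2 were lower, beside 30.1% and 27.5% of all genes tested. Pmp22 was lower in clone 2 (-0.55 ± 0.04 on the log2 scale, ± SE, edgeR adjusted p = 1.49e-06), and so was Egr2 (-1.44 ± 0.13, 2.80e-06). Mbp was higher in clone 2 (0.44 ± 0.07, 0.000166). For these 3 genes the distance from the control was smaller in clone 2 than in clone 1. Mitf did not pass the test between the clones (-0.09 ± 0.11, adjusted p = 0.514), and Ngfr and L1cam were at 0 counts in both. Nab2 and Emp3 were lower in clone 2 than in clone 1, like Egr2 and Pmp22 (-0.57 ± 0.06 and -0.90 ± 0.06).

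Levels of different genes can be compared only per length, here as RPKM, reads per kilobase of merged exons at the scaled depth. In the control the order was Mbp at 13.6, Pmp22 at 6.95, Ngfr at 2.12, L1cam at 1.82, Egr2 at 0.849, Mitf at 0.732, Mia at 0.188 and Ednrb at 0 RPKM. Egr2 and Mitf lay within their spread of each other (SD of 0.0857 and 0.0711), and Ngfr and L1cam change places where the longest transcript sets the length (2.12 and 2.61 RPKM). In clone 1 Pmp22 led at 180 RPKM, ahead of Egr2 at 7.36, Mbp at 3.29 and Mitf at 2.65 RPKM. In clone 2 Pmp22 led at 123 RPKM, ahead of Mbp at 4.46, Egr2 at 2.72 and Mitf at 2.50 RPKM, and the last 2 lay within their spread (SD of 0.472 and 0.346). Mbp was thus the most abundant of the 8 genes per length in the control, and Pmp22 in both clones.

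Of 24 transcription factors of the neural crest, 15 were tested: 4 rose in both clones, near the 28.7% of all genes, 9 fell in both, where 29.4% of all genes did, and 1 was called in opposite directions. The medians of the 15 were -0.31 and -0.68 on the log2 scale. Msx2, a homeobox factor of the neural plate border, had 1 count in clone 1 and 0 in clone 2, against 5.19 ± 0.622 CPM in the control, and its paralog Msx1 had 8 counts in clone 1 and 4 in clone 2, against 1113 in the control. Snai1, a repressor of epithelial genes, averaged 10.8 ± 0.656 CPM in clone 1 and 0.425 ± 0.162 CPM in clone 2, against 30.4 ± 1.71 CPM in the control (-1.49 ± 0.13 and -6.14 ± 0.17). Its paralog Snai2, the usual crest marker of the pair in birds, averaged 8.63 ± 0.697 CPM in clone 1 and 6.87 ± 1.31 CPM in clone 2, against 0.398 ± 0.0694 CPM in the control (4.43 ± 0.19 and 4.11 ± 0.19). Sox9, a relative of Sox10 in the SoxE group, rose (1.25 ± 0.07 and 1.00 ± 0.07), while Sox8, of the same group, had 0 counts in both clones and 0.622 ± 0.0512 CPM in the control. Tfap2a was called in opposite directions (0.79 ± 0.07 and -0.50 ± 0.07), and Zeb2 is counted in this list as well as among the regulators of myelination. Foxd3 and Pax3 were among 8 factors at 0 counts in all 9 libraries.

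Of 15 tested genes of Schwann cell precursors and of repair Schwann cells, 9 rose in both clones and 2 fell in both, where 28.7% of all genes rose in both and 29.4% fell in both. The medians of the 15 were 1.03 and 0.62 on the log2 scale. Gdnf, a growth factor that denervated Schwann cells make, averaged 97.8 ± 2.17 CPM in clone 1 and 146 ± 1.67 CPM in clone 2, against 6.66 ± 0.0929 CPM in the control (3.88 ± 0.05 and 4.45 ± 0.05). Postn, a matrix protein of Schwann cells and fibroblasts, averaged 99.2 ± 12.5 CPM in clone 1 and 895 ± 119 CPM in clone 2, against 6.97 ± 0.296 CPM in the control (3.83 ± 0.12 and 7.01 ± 0.14). Nes, an intermediate filament protein of progenitors, averaged 118 ± 1.75 CPM in clone 1 and 121 ± 4.93 CPM in clone 2, against 8.03 ± 1.02 CPM in the control (3.88 ± 0.08 and 3.91 ± 0.08). Erbb3, the neuregulin receptor through which Schwann cells survive, fell (-1.37 ± 0.08 and -1.31 ± 0.08). Of the neuregulins, Nrg1 averaged 9.04 CPM in clone 1 and 5.10 CPM in clone 2, against 2.19 CPM in the control (2.04 ± 0.11 and 1.22 ± 0.11), and Nrg2 rose too (1.83 ± 0.10 and 2.17 ± 0.10). Of the glial genes of the list, Fabp7 and Sox2 had 0 counts in all 9 libraries, and Cdh19 had 0 in clone 1, 4 in clone 2 and 4 in the control.

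**Figure D4:**
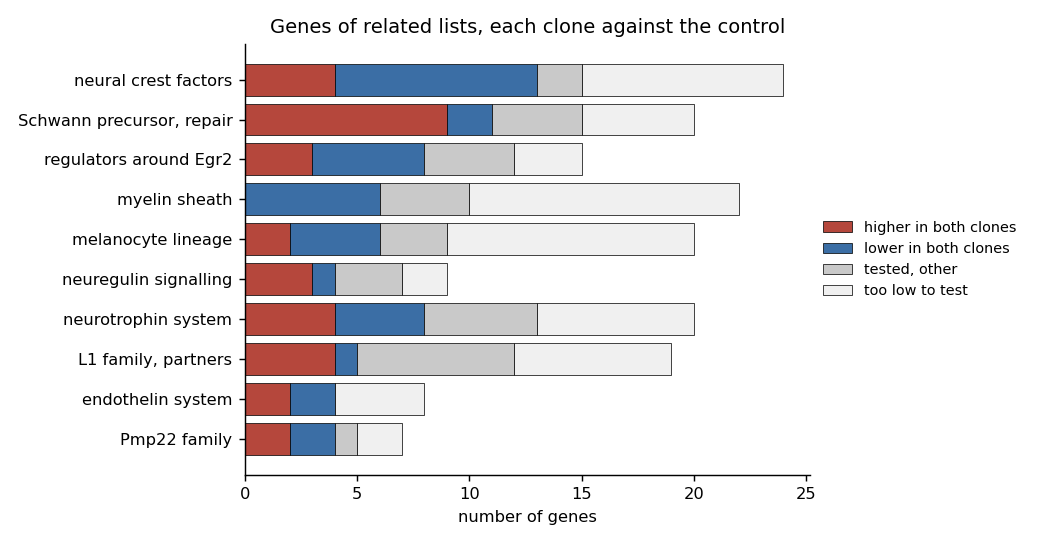
Number of genes (x axis) in 10 related lists by their calls in clone 1 and clone 2 against the control. Grey genes were tested but not given a single direction over the clones, and the palest were too low to test. The myelin sheath list holds 6 genes lower in both clones and 0 higher in both, and the Schwann precursor and repair list 2 lower and 9 higher in both. Over all genes tested, 29.4% were lower in both and 28.7% higher in both.

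Genes whose pattern over the 9 libraries came closest were found by the root mean square difference of centred log2(CPM + 0.1) among 10432 genes of at least 5 CPM in a group. Gdpd2 (0.107) and C1s1 (0.134) lay nearest to Pmp22, and Pmepa1 (0.0576) and Hpcal1 (0.0912) to Mbp. Prkacb (0.0699) and Raph1 (0.0845) lay nearest to Mitf, and Arrb1 (0.213) and Hivep3 (0.237) to Egr2. Gdpd2, for example, averaged 121 CPM in clone 1 and 72.7 CPM in clone 2, against 4.32 CPM in the control. For Ngfr the nearest were Tlx3 (0.0327) and Lonrf3 (0.0389), and for L1cam Atp1b1 (0.0247) and Rassf10 (0.0361); all 4 had 0 counts in the clones, so that the likeness is set by the control level alone.

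Markers of other cell types are set beside these genes. Their sums moved in no single direction, and their part in the results was not tested. Markers of fibroblasts, a cell type that makes Pmp22 and Postn, summed to 1062 to 1135 CPM in clone 1 libraries and 935 to 1127 CPM in clone 2 libraries, against 356 to 390 CPM in control libraries. Fbln2 made up most of that sum, at 903 CPM in each clone and 366 CPM in the control. Pdgfra averaged 172 CPM in clone 1 and 107 CPM in clone 2, against 7.83 CPM in the control. Col1a1 was low, at 2.95 CPM in clone 1 and 2.77 CPM in clone 2, against 1.45 CPM in the control. In that list 5 of 6 tested markers were higher in both clones, where 28.7% of all genes were. Lum and Thy1 were at 0 counts in all 9 libraries. Markers of neurons, which also make L1cam and Ngfr, summed to 37.9 to 41.7 CPM in clone 1 and 40.2 to 50.6 CPM in clone 2, against 129 to 151 CPM in the control. Of these markers 10 of 12 stayed under 1 CPM in every group, and Map2 made up nearly all of the sum. Rbfox3, the other marker that reached 1 CPM in a group, went the other way. It had 10 counts in clone 1 and 509 in clone 2, against 0 in the control. Macrophage markers, the list that bears on Gpnmb, summed to 285 to 299 CPM in clone 1 and 228 to 241 CPM in clone 2, against 273 to 304 CPM in the control, with 9 of 12 under 1 CPM in every group and Tyrobp, C1qa and C1qb at 0. Cd14 made up most of that sum (282 CPM in clone 1 and 191 CPM in clone 2, against 279 CPM in the control). Of the 6 tested, 1 was higher in both clones and 2 were lower in both, beside 28.7% and 29.4% of all genes. Cd68, higher in clone 2, averaged 9.80 CPM in clone 1 and 38.6 CPM in clone 2, against 10.1 CPM in the control. Lyz2, higher in both clones, averaged 0.279 CPM in clone 1 and 6.36 CPM in clone 2, against 0.0277 CPM in the control. Aif1 averaged 0.00983 CPM in clone 1 and 0.0464 CPM in clone 2, against 0.402 CPM in the control. Csf1r averaged 0.221 CPM in clone 1 and 0.165 CPM in clone 2, against 0.442 CPM in the control. With the replicate number as a block, Csf1r was not called in clone 1 (-0.97, edgeR adjusted p = 0.0818). Endothelial markers summed to 16.1 to 18.3 CPM in clone 1 and 0.90 to 1.26 CPM in clone 2, against 3.31 to 5.46 CPM in the control. Kdr made up most of the clone 1 sum (16.2 CPM) and Egfl7 most of the control sum (3.97 CPM). Markers of mammary epithelium summed to 2204 to 2418 CPM in clone 1 and 2994 to 3331 CPM in clone 2, against 5758 to 6860 CPM in the control. Of 9 tested, 5 were lower in both clones, beside 29.4% of all genes. Another 2, Erbb2 and Krt14, were higher in both, beside 28.7%. Erbb2 averaged 1034 CPM in clone 1 and 1500 CPM in clone 2, against 554 CPM in the control. Krt8 averaged 666 CPM in clone 1 and 787 CPM in clone 2, against 2393 CPM in the control. Whether reads of the Neu transgene count towards Erbb2 was not tested.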

How the data were processed

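Stranded, polyA-enriched RNA of 9 libraries was sequenced. Per the submitters' processing notes, the tools were fastp, Subread and DESeq2 and the builds mm10 and GRCm38; which annotation the reads were counted on, and with what strand setting, is not given. The authors deposited raw counts per gene and library, with Entrez identifiers and no normalization. Symbols were found for 24570 of 24594 identifiers, and the other 24 held 0.202% of a library's counts or less. The 8 genes and 19 lists of related genes and markers were chosen with earlier results of these data known.

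Counts were fitted in R 4.3.3 with edgeR 4.0.16. Genes passed filterByExpr with a minimum count of 10, were scaled by TMM and fitted by the quasi-likelihood method over all 9 libraries as 3 groups, with Benjamini-Hochberg adjusted p under 0.05 over 13928 genes. The common biological coefficient of variation was 0.0878. Standard errors are the absolute log2 fold change divided by the root of the test's F statistic. Depth was 65805296 to 83282841 counts. Folds against 0 counts are bounds at a floor of 3 counts over a group, and floors and counting intervals cover counting error only, since reads are not independent molecules. Exon lengths and the strands of genes came from GENCODE vM21 (GRCm38), and positions, promoters and overlapping genes from RefSeq tables of the same build. The genes Rpl21-ps8 and Gm52337 overlap Mbp, Gm35197 overlaps Ednrb, Gm15531 overlaps Mitf and Gm32255 overlaps Egr2; they are not analysed here.

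Replicate numbers are in the labels, and same-numbered libraries of different groups deviated together (correlation of 0.156 to 0.600 in all 9 pairs), so a fit with the number as a block was run beside the unblocked fit.

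From each list, genes were named where they had at least 5 CPM in a group and were among the 3 with the largest mean change called with 1 sign in both clones, plus 1 called in opposite directions; families were given gene by gene. Some genes of the lists are not reported here, though counts of list members include them. Genes named outside this rule, after their values were seen, are neighbours of Ngfr and L1cam, other members of the lists and those at or near 0 counts. Alternatives were RLE and total-count scaling, DESeq2 1.42.0, no filter and a minimum count of 50, the 2 groups alone, the block, and leaving out each library. The fit was tested on simulated counts.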

Additional observations from a re-analysis of the deposited data

Results flagged for a closer look

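Of the 8 genes, 3 differed between the clones under the same comparison with the control, by the test of the difference itself (clone 2 minus clone 1, log2 scale, edgeR's quasi-likelihood test with Benjamini-Hochberg adjustment). Pmp22 was lower in clone 2 by -0.55 (adjusted p = 1.49e-06), and Egr2 by -1.44 (2.80e-06), with all 3 clone 2 libraries below all 3 clone 1 libraries for both. Mbp was higher in clone 2 by 0.44 (0.000166), with all 3 clone 2 libraries above all 3 clone 1 libraries. Each clone is a single clone, so a difference between these clones cannot be told apart from the spread among clones in general.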

How the results depend on the processing

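No called direction reversed under any alternative run, and none of the 6 tested genes of the list gained or lost a call in any comparison. Across alternatives the log2 fold change lay between 4.66 and 4.74 (clone 1) and 4.10 and 4.19 (clone 2) for Pmp22, between -2.11 and -2.01 and between -1.65 and -1.56 for Mbp, between 1.79 and 1.93 and between 1.66 and 1.85 for Mitf, and between 3.05 and 3.24 and between 1.55 and 1.81 for Egr2. Without the filter on low counts Mia was called lower in both clones, which made 4 genes lower in place of 3. With the replicate number as a block, 3 genes of the list were higher and 3 lower in each clone, as without it, and the number of all genes called was 11420 for clone 1, 11257 for clone 2 and 9439 for clone 2 against clone 1. Of 411 log2 fold changes of 137 genes run with the block, 20 changed their call, none of them of the list's 6 tested genes. Among genes named in the report these were Csf1r in clone 1, Egr1 and Naa10 in clone 2, Nab1 in both clones, and Snai2, Mia2, Mia3 and Perp between the clones. Without the 3 libraries numbered 1, a setting chosen after seeing the data, these numbers were 11168, 10929 and 8886, with 3 genes of the list higher and 3 lower in each clone. Scaling moved the median of all genes by at most 0.022. Levels per length moved with the length used for 12 of 17 values. Depth limits Ednrb and Mia, whose summed counts were at most 43 in a group.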
